A study of Mus musculus with 6 samples.

Results

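C2H2 zinc finger transcription factors are described here from a table of genes that differed between acetylcholine-treated and control KYSE30 cells. The 87 genes described here are the rows whose transcription factor family is given there as zf-C2H2, apart from KLF6 and KLF10, out of 4195 listed genes. Of the 87, 32 lie on chromosome 19 and 55 on 18 other chromosomes. The rule itself names no measured value of the comparison, but it was set with earlier results of these data known. Every row of the table had also been selected already by the authors for a difference between the groups.

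A C2H2 finger is a short fold in which a pair of cysteines and a pair of histidines hold a zinc ion, and arrays of such fingers read DNA sequence base by base. Many of the human genes lie in tandem clusters on chromosome 19 and carry a KRAB domain, which recruits the corepressor TRIM28 and the histone methyltransferase SETDB1 to silence transposable elements and other targets. Other members are long-conserved regulators, such as the SP and KLF proteins, which have few fingers and bind GC-rich promoter boxes, and REST, which silences neuronal genes outside the nervous system.

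KYSE30, an established line of human origin, grew out of a squamous carcinoma of the esophagus and is given as wild type in the labels. Its RNA was sequenced in 3 Control samples and in 3 samples exposed for 4 h to 100 uM ACh (acetylcholine, a ligand of muscarinic and nicotinic receptors). The time label of the Control samples is 4 h as well, and no vehicle is named for them. Whether samples of one group came from different cultures is not in the labels, and the spread behind each p-value may therefore be technical.

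Values are the authors' normalised read counts, which by their spacing are reads per gene divided by one factor per library. The listed genes summed to between 10519500 and 11469000 per library, which is not the sequencing depth, and that depth is unknown. Genes are said to have risen or fallen, and are termed called, with an adjusted p under 0.05 both in limma, fitted on log2(value + 1) over all 4195 genes, and in the authors' deposited table. Each log2 fold change is the ACh mean minus the Control mean on that scale, and the added 1 understates the change of low genes. Limma was fitted and adjusted over these selected rows only, so its adjusted p-values do not account for the selection. As all rows had been selected, 63.8% of the 4195 genes passed both, 28.8% as rises and 35.0% as falls. The 3 ACh values lay wholly above or wholly below the 3 Control values in 93.0% of listed genes. In these bulk samples, fewer cells of a type and less RNA per cell cannot be told apart.

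Base composition and a sign of library quality also moved with the groups. Across 3676 listed genes with a value, the log2 fold change had a Spearman correlation of -0.76 with GC content, taken from the mouse gene that carries the symbol, a description across genes that share libraries. By symbol 24 of the 87 C2H2 genes (27.6%) had such a value, and 47 (54.0%) would have a mouse counterpart if synonyms were counted. Both are under 80%, so a check of these genes for GC content is void, and its part in their changes was not tested. The 10 listed mitochondrially encoded protein genes summed to 807533 to 927805 in Control and 699304 to 761070 in ACh, all 10 with lower means in ACh, and their part was not tested either. Of 10 markers of basal squamous epithelium 4 were listed, TP63, SOX2, DSG3 and KRT15, with summed values of 9272 to 9517 in Control and 8876 to 9350 in ACh. Within that sum TP63 rose by 0.23, DSG3 was higher by 0.12 without a call, and SOX2 and KRT15 fell by 0.20 and 0.17, the groups of KRT15 overlapping. Of 9 markers of fibroblasts, leukocytes and endothelium 3 were listed, COL1A1, LAPTM5 and EGFL7, and they summed to 1220 to 1291 in Control and 982 to 1156 in ACh. Most of that sum was EGFL7, which fell by 0.28. COL1A1 was lower by 0.33 and LAPTM5, a leukocyte gene, higher by 0.96, at 19.7, 21.3 and 17.7 (Control) against 31.1, 39.6 and 48.2 (ACh), both without a call, and the part of these markers was not tested. Markers outside the table have no value here.

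The C2H2 genes were mostly higher in ACh, by small amounts. Of the 87 genes 60 had a higher mean in ACh (69.0%), against 48.3% of all listed genes. Limma alone called all 87, as it did 99.6% of listed genes. Past both tests were 51, of which 30 rose (34.5% of the 87, background 28.8%) and 21 fell (24.1%, background 35.0%), so the share past both, 58.6%, was a little under the background of 63.8%. The median log2 fold change of the 87 was 0.22, against -0.10 over all listed genes. The median size of the change was 1.21-fold, against 1.15-fold over all listed genes. From the lowest to the highest of 4 bins of mean normalised count, it was 1.26-fold, 1.16-fold, 1.13-fold and 1.11-fold over all listed genes. For the C2H2 genes it was 1.23-fold, 1.17-fold, 1.14-fold and 1.08-fold, with 47 of the 87 in the lowest bin. The part of abundance and of the authors' selection of rows in the difference was not tested. In 85 of the 87 genes the groups did not overlap, OVOL1 and ZNF107 being the exceptions, and this held for 93.0% of all listed genes. The 87 genes together summed to 60443 to 60523 in the Control libraries and 62332 to 63065 in the ACh libraries, so all 3 ACh libraries lay above all 3 Control libraries.

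The largest rise past both tests was that of ZNF460 (ENSG00000197714, chromosome 19, 57280051 to 57293569), a gene near the end of the long arm of chromosome 19. In normalised counts it stood at 111, 121 and 116 (Control) against 172, 169.7 and 202 (ACh). All ACh libraries were above all Control libraries, and the log2 fold change was 0.64 (SE 0.12, limma adjusted p = 1.67e-04). A listed transcript of unconfirmed type on the opposite strand, AC005261.5, overlaps it and had a log2 fold change of 0.87, and no source says that strand was used in counting, so the reads of the pair could not be told apart and the value of ZNF460 is uncertain. ZNF484 on chromosome 9 had 318, 288 and 303 (Control) against 357, 437 and 429 (ACh), a log2 fold change of 0.42, with ACh replicate 1 closest to the Controls. IKZF2 (ENSG00000030419, chromosome 2, 212999691 to 213152427) encodes Helios, a factor of the Ikaros family best known from lymphocytes. It went from a Control mean of 487 ± 32.0 to an ACh mean of 647 ± 31.7 (SD, n = 3), a rise of 0.41 on the log2 scale (SE 0.07, limma adjusted p = 6.53e-05). ZNF624 on chromosome 17 had 219, 214 and 207 (Control) against 279, 229 and 333 (ACh). Its ACh libraries were the most uneven of this set, ACh replicate 2 lying close to the Controls, and the log2 fold change was 0.38, or 0.24 without ACh replicate 3.

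ZNF292 (ENSG00000188994, chromosome 6, 87152833 to 87264196), which encodes a very long multi-finger protein, stood at 604, 642 and 663 (Control) against 817, 789 and 849 (ACh). Its groups lay well apart, and it rose by 0.36 (SE 0.06). ZNF146 (ENSG00000167635, chromosome 19, 36214602 to 36238774), whose protein consists almost wholly of fingers, was the most strongly expressed gene that rose on chromosome 19. It had 1924, 1803 and 1774 (Control) against 2309, 2273 and 2213 (ACh), a log2 fold change of 0.31 (SE 0.04) and the smallest limma adjusted p of the 87 genes (6.56e-06). ZNF770 on chromosome 15, ZFX on the X chromosome and ZKSCAN8 on chromosome 6 rose by 0.30, 0.29 and 0.28. ZFX encodes an activator that binds just downstream of the start sites of CpG island promoters, and its counts were 487, 475 and 494 (Control) against 646, 570.2 and 566 (ACh). ZNF845, in a cluster of related genes on chromosome 19, rose by 0.36 from Control values of 395, 307 and 356 to ACh values of 436, 500.1 and 418, the widest spread within Control among these rises.

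The largest fall was that of ZNF205 (ENSG00000122386, chromosome 16, 3112560 to 3120517). In normalised counts it stood at 515, 509 and 518 (Control) against 398, 382 and 377 (ACh), with tight replicates in both groups, and the log2 fold change was -0.41 (SE 0.07, limma adjusted p = 6.64e-05). ZFPM1, which encodes FOG1, a cofactor of GATA factors, lies on chromosome 16 as well and went from a Control mean of 422 ± 52.4 to an ACh mean of 322 ± 9.60 (SD, n = 3), a log2 fold change of -0.38. ZNF777 on chromosome 7 had 452, 464 and 488 (Control) against 360.3, 393 and 358 (ACh) and a log2 fold change of -0.34. REPIN1 (ENSG00000214022, chromosome 7, 150368189 to 150374044), named for its binding at a replication initiation region, was among the most abundant genes of the family and fell by 0.30 (SE 0.04, limma adjusted p = 8.79e-06). It stood at 2242, 2336 and 2373 (Control) against 1881, 1813 and 1966 (ACh); the groups lay well apart. ZNF362 on chromosome 1 fell by 0.26, and the chromosome 19 genes ZNF865, ZNF358, ZNF444 and ZNF579 fell by 0.32, 0.30, 0.30 and 0.27.

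**Figure D1:**
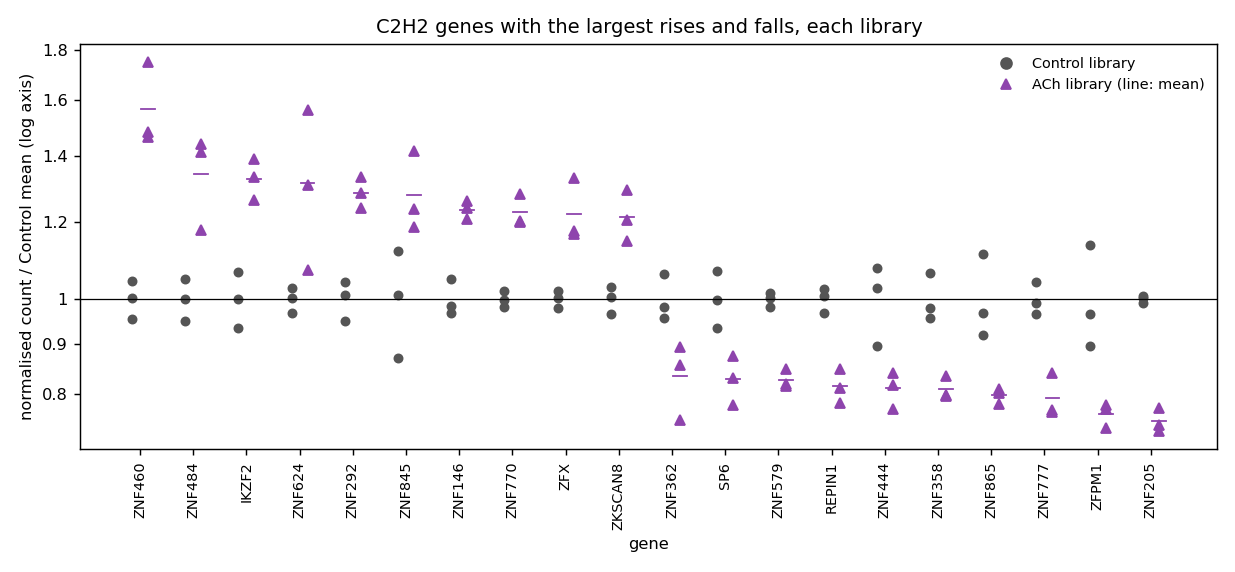
Normalised count of each library divided by the gene's Control mean (log axis) for the 10 largest rises and 10 largest falls chosen by rule above and below the median abundance of the 87 genes; circles are Control libraries, triangles ACh libraries and short lines ACh means. The rule took only genes past both tests whose ACh and Control values do not overlap, so the separation seen here was set by it. ZNF624 shows the widest ACh spread.

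Among the SP and KLF genes, whose proteins share a 3-finger domain for GC and CACCC boxes, 6 were listed besides the pair left out. Of these 3 rose (50.0%, background 28.8%), 2 fell (33.3%, background 35.0%) and 1 was not called. KLF12, a repressor of the AP-2 alpha gene, rose by 0.32, with 277, 249 and 272 (Control) against 349, 356 and 293 (ACh). SP3 rose by 0.19 from values of 1920 to 2017 up to 2172 to 2329, and KLF3, a repressor that works through CtBP, rose by 0.16. Its Control and ACh values were 1305 to 1409 and 1462 to 1604. SP6, a regulator of tooth and skin epithelium, went the other way, from a Control mean of 503 ± 33.4 to an ACh mean of 416 ± 24.1 (SD, n = 3), a fall of 0.27. KLF16 fell by 0.26 with the tightest replicates of these 6 in ACh, 1054, 1076 and 1036 (Control) against 892, 867 and 889.8 (ACh). SP1, the most abundant C2H2 gene in the table by normalised count, had 2329.6, 2302 and 2434 (Control) against 2516, 2505 and 2629.6 (ACh), a log2 fold change of 0.11. It was not called, as its adjusted p was 0.0627 in the authors' deposited table.

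General regulators of chromatin and promoters were few in the table. Of the list of architectural and general factors 3 were listed, 2 of which rose (66.7%, background 28.8%) and 1 fell (33.3%, background 35.0%). REST had 729, 775 and 756 (Control) against 904, 892 and 852 (ACh) and rose by 0.23 (SE 0.05), and ZFX rose as given above. MAZ, a factor of GC-rich promoters, was the most abundant C2H2 gene per kilobase of transcript, at 623 normalised counts per kilobase, and fell by 0.23. It stood at 2162, 2510.3 and 2400.1 (Control) against 2026, 1954 and 2045 (ACh), and Control replicate 1 was the nearest to the ACh libraries. CTCF and YY1 had no row among the C2H2 genes.

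The SCAN domain pairs zinc finger proteins with each other, and both listed genes with ZKSCAN symbols rose (background 28.8%). That list was made by symbol, and ZNF24 and ZNF444, which encode SCAN proteins too, rose by 0.19 and fell by 0.30. ZKSCAN8 went from a Control mean of 702 ± 22.4 to an ACh mean of 852 ± 52.1 (SD, n = 3) and ZKSCAN1 from a Control mean of 1313 ± 18.7 to an ACh mean of 1488 ± 37.6 (SD, n = 3), log2 fold changes of 0.28 and 0.18. Of the large developmental factors 3 were listed. IKZF2 rose and ZFPM1 fell as given above, and HIVEP2, a binder of kB-like enhancer sites, was higher by 0.21 without a call. OVOL1, which promotes epithelial differentiation, was the only listed gene of the epithelial-mesenchymal regulators, and SNAI1, SNAI2, ZEB1 and ZEB2 had no row. It stood at 544, 474 and 497 (Control) against 399, 425 and 476 (ACh), the groups overlapped in that the highest ACh value exceeded the lowest Control value, and the gene, at a log2 fold change of -0.22, was not called. The 2 genes with ZFP numbers were both higher. ZFP91, which encodes a ubiquitin ligase of the non-canonical NF-kB pathway, rose by 0.19, with 1936, 1772 and 1849 (Control) against 2176, 2107 and 2053 (ACh). ZFP69 was the least abundant C2H2 gene, with 25.7, 24.4 and 18.4 (Control) against 45.0, 30.5 and 39.8 (ACh), and its log2 fold change of 0.72 rests on few reads.

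Other singly named genes changed by similar amounts. PLAG1, an oncogene of salivary gland adenomas, rose by 0.34, with 259.6, 267 and 239 (Control) against 278, 351 and 342 (ACh). RLF rose by 0.23 with very even Control libraries, 1169, 1155 and 1157 (Control) against 1388, 1377 and 1327 (ACh). E4F1, which encodes a ubiquitin ligase that acts on p53, fell by 0.22 and GLI4 by 0.24, E4F1 losing its call with libraries scaled to equal totals and GLI4 with the length trend removed. RBAK, whose protein binds the retinoblastoma protein, was higher by 0.19 and was not called. These genes were chosen for description by their known roles after their values had been seen.

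The 62 genes with a plain ZNF number made up most of the family. Of these 45 were higher in ACh, 19 having risen (30.6%, background 28.8%), 12 fallen (19.4%, background 35.0%) and 31 without a call, with a median log2 fold change of 0.25. The 25 others had 15 higher, 11 that rose (44.0%, background 28.8%) and 9 that fell (36.0%, background 35.0%), with a median of 0.18. The median normalised count was 380.4 for the numbered genes and 777 for the others.

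On chromosome 19 the C2H2 genes stood apart from the other listed genes. Of the 32 members there 22 were higher in ACh (68.8%), while of the 374 other listed genes of the same chromosome 10 were (2.67%). Past both tests, 9 members rose (28.1%, background 28.8%) and 8 fell (25%, background 35.0%). Among the other genes there were 2 rises (0.535%) and 286 falls (76.5%). The members' share of rises was thus close to the background, and it was the other genes that lay far from it. The 2 rises were MUC16, which encodes the mucin CA125, and AXL, a receptor tyrosine kinase, with log2 fold changes of 0.48 and 0.20. The median log2 fold change was 0.27 for the members and -0.21 for the other genes. With the genes of lowest abundance left out by a filter, 4 members there were higher, 3 rose and the members' median turned to -0.22. In each ACh library the median member lay above its Control mean, by 0.23, 0.27 and 0.21 on the log2 scale. The median of the other chromosome 19 genes lay below, at -0.21, -0.22 and -0.20. The members' summed counts overlapped between the groups, at 19295, 19455 and 18932 (Control) against 19366, 19451 and 19566 (ACh). Members and other genes are not replicates, and the difference between them has no test here. The members were also less abundant, with a median of 394 normalised counts against 1625, and longer, with a median length of 5.96 kb against 4.12 kb as the file gives gene length, and the part of either was not tested.

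Elsewhere in the genome the same contrast was much smaller. Of the 55 members on other chromosomes 38 were higher (69.1%), a share like that on chromosome 19, with a median log2 fold change of 0.19. Among the 3734 other listed genes of those chromosomes 52.4% were higher, with a median of 0.10. Past both tests, 21 members rose (38.2%) and 13 fell (23.6%) there, against 31.5% and 31.1% of the other genes of those chromosomes. The shares called, 61.8% of the members and 62.6% of the other genes, were close. With every library scaled to one total, the members' falls numbered 8, so that 72.4% rather than 61.8% of their calls were rises. The 6 members that lost their calls, here and on chromosome 19, were E4F1, WIZ, ZNF282, ZNF512B, ZNF740 and ZNF768. Over all listed genes rises went from 45.1% to 54.9% of calls. No direction of a member changed with that scaling.

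Direction ran in stretches along chromosome 19. Consecutive members at most 1 Mb apart formed 7 groups of 2 or more genes, 24 genes in all, and in each of the 7 all members pointed one way. This grouping was chosen after the values were seen, depends on the limit of 1 Mb and is a description. From 55576770 to 56160893, on the long arm, lay 6 neighbours that were all lower, ZNF579, FIZ1, ZNF865, ZNF580, ZNF787 and ZNF444, with log2 fold changes between -0.32 and -0.22. FIZ1, named for its binding to the receptor FLT3, had 1009, 1011 and 959 (Control) against 837, 802 and 862 (ACh). ZNF787 had 2066, 2290.1 and 2058 (Control) against 1827, 1835 and 1847 (ACh), with nearly equal ACh libraries. Both fell, as did ZNF579, ZNF865 and ZNF444, and ZNF580 was lower by 0.28 without a call. The other listed genes within this stretch, EPN1 and U2AF2, fell too, by 0.32 and 0.23.

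On either side of that stretch the members were higher. From 52797409 to 53392217 ZNF28, ZNF160, ZNF845 and ZNF525 had log2 fold changes of 0.18, 0.21, 0.36 and 0.41, of which ZNF845 was called. From 57191500 to 57846238 ZNF264, ZNF460 and ZNF587B stood at 0.16, 0.64 and 0.29. The distance from the end of ZNF444 to the start of ZNF264 is just over 1 Mb. A slightly wider limit would have joined the lower stretch and these higher genes in a group of mixed direction. Genes of such clusters arose by duplication and can share sequence, so reads may be split between them and single values, those of ZNF780A and ZNF780B among them, are uncertain.

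Further clusters on chromosome 19 held only higher members. On the short arm, from 9323772 to 9621399, lay ZNF559, ZNF266, ZNF121 and ZNF561, of which ZNF121 and ZNF561 rose. ZNF561 had 326, 344 and 343 (Control) against 411, 414 and 409 (ACh), an even shift in every library of 0.28 on the log2 scale. ZNF823 and ZNF799, from 11721265 to 12401271, were higher by 0.42 and 0.52 at low abundance. From 36214602 to 36727701 ZNF146 and ZNF260 rose, by 0.31 and 0.33, and ZNF567 was higher by 0.32. ZNF780A, in a pair with ZNF780B from 40028260 to 40090938, rose by 0.30, and ZNF780B was higher by 0.29. No other gene of the table lay within these 4 stretches or within that from 52797409 to 53392217.

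Members standing alone on chromosome 19 went both ways. KLF16 and ZNF358 near the end of the short arm fell by 0.26 and 0.30, and WIZ, a partner of the histone methyltransferases EHMT1 and EHMT2, fell by 0.15 from a Control mean of 2127 ± 58.6 to an ACh mean of 1919 ± 45.1 (SD, n = 3). ZNF574 was lower by 0.15 without a call. ZNF302 and ZNF507 rose by 0.34 and 0.23, and ZNF714 and ZNF283 were higher by 0.30 and 0.36. ZNF714 had the evenest Control libraries of the 87 genes, 196, 196 and 197 (Control) against 251, 241 and 236 (ACh).

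**Figure D2:**
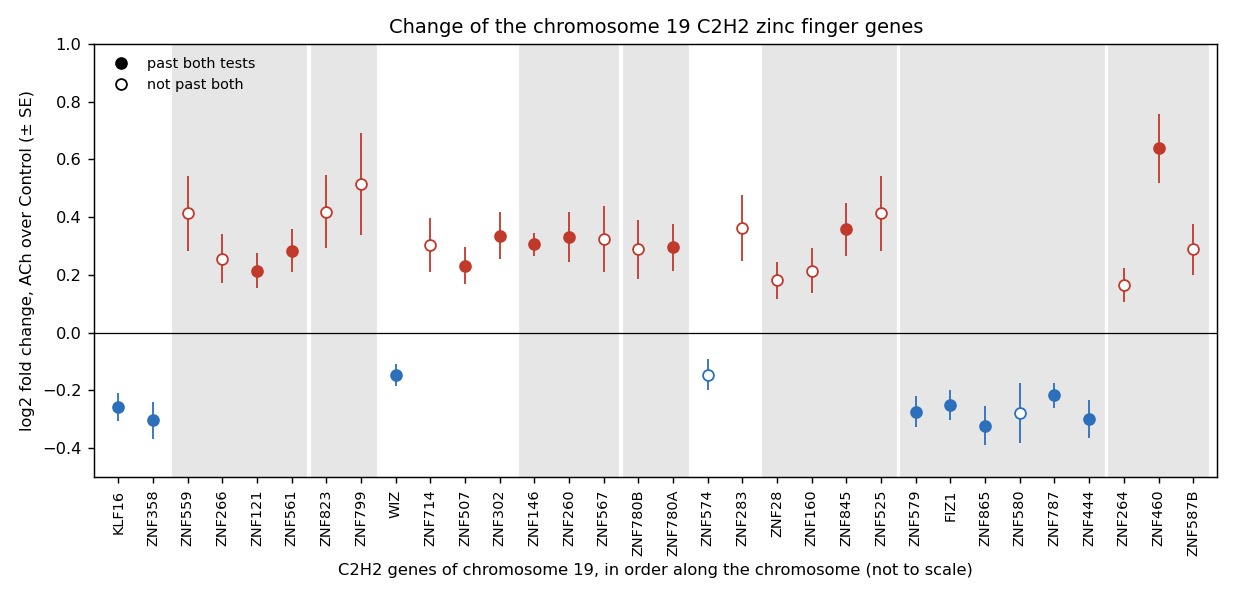
Log2 fold change (ACh over Control, limma, ± SE) of the 32 C2H2 genes of chromosome 19 in chromosomal order, not to scale; filled points passed both tests and grey bands mark groups of neighbours at most 1 Mb apart. The 6 neighbours from ZNF579 to ZNF444 lie between -0.32 and -0.22, and the groups on either side lie above 0.

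By normalised count, nearly all chromosome 19 members of low abundance were higher, while on other chromosomes the share of higher members changed little with abundance. All listed genes were divided by mean normalised count into 4 bins of equal size, with limits at 566, 1194 and 2429. Of the 87 members 47 lay in the lowest bin, 25 in the second, 14 in the third and 1, SP1, in the highest. In the lowest bin 37 of 47 were higher in ACh (78.7%), against 52.9% of the 1002 other genes there, in the second 13 of 25 against 53.5%, and in the third 9 of 14 against 48.8%. Median log2 fold changes over the members were 0.29, 0.16 and 0.15 in these 3 bins, and over the other genes 0.21, 0.15 and -0.11. The median size of the log2 fold change over all listed genes also fell, at 0.33, 0.21 and 0.18. The part of the authors' selection of rows in these values was not tested. With bins set per kilobase the members' medians of 0.16 and 0.15 became -0.15 and -0.036, and with the length trend removed 0.030 and 0.085. In the lowest bin 11 rose, 5 fell and 31 were not called, a share called that was close to the 34.1% of all listed genes in that bin (17.1% as rises and 17.1% as falls).

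On chromosome 19, 18 of the 19 members in the lowest bin were higher, ZNF580 being the exception, with 255, 302 and 259.5 (Control) against 238, 198 and 237 (ACh). Of the 65 other chromosome 19 genes in that bin 8 were higher (12.3%). In the second bin 3 of 10 members were higher, ZNF121, ZNF507 and ZNF264, against 1 of 67 other genes. In the third, ZNF146 was higher and WIZ and ZNF787 lower, against 0 of 118 other genes. Away from chromosome 19, 19 of 28 (67.9%), 10 of 15 (66.7%) and 8 of 11 (72.7%) members were higher in the 3 lower bins.

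**Figure D3:**
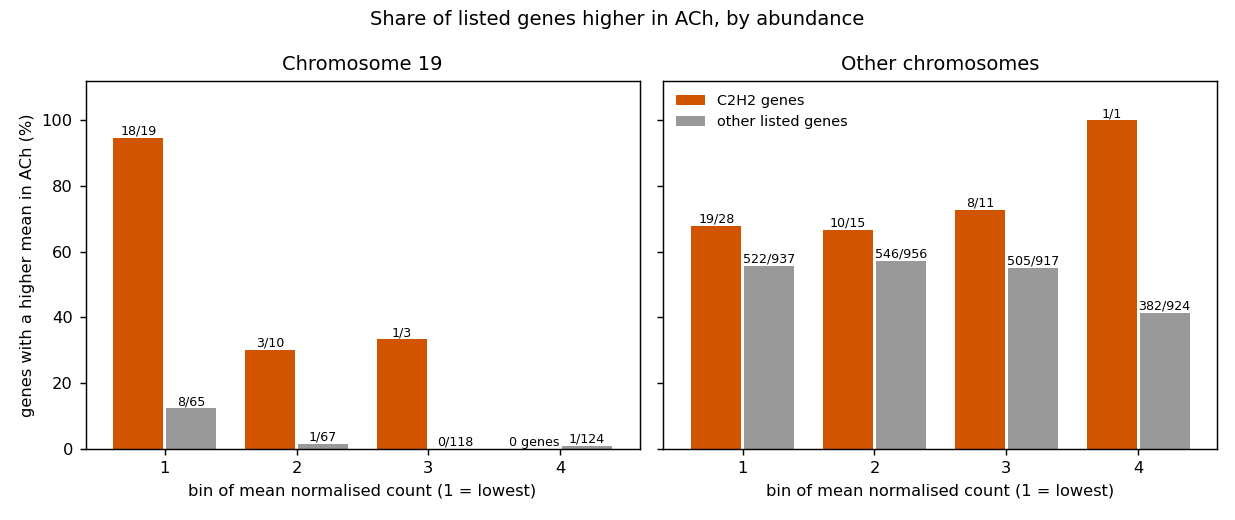
Percent of genes with a higher mean in ACh in each bin of mean normalised count, for C2H2 genes and the other listed genes on chromosome 19 (left) and on other chromosomes (right); numbers over the bars are higher genes of all genes. On chromosome 19, 18 of 19 C2H2 genes in the lowest bin were higher, against 8 of 65 other genes.

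Counts per kilobase, which allow levels to be compared between genes of unequal length, gave a steeper order. Gene length, by which they are divided, itself correlated with the log2 fold change (Spearman 0.29 over the members, 0.41 over those on other chromosomes). This order therefore mixes abundance with length, and the part of each was not tested. With bins set on that measure over all listed genes, 43 of the 48 members in the lowest bin were higher (89.6%), 11 of 24 in the second, 6 of 12 in the third and 0 of 3 in the highest. Those 3 were MAZ, ZNF787 and ZNF768, which all fell, ZNF768 by 0.20. The 5 lower members of the lowest bin included ZFPM1. On chromosome 19, 20 of 21 members in the lowest bin were higher, against 5 of 38 other genes, and 1 of 6 in the second. Away from chromosome 19 the counts from the lowest to the highest bin were 23 of 27, 10 of 18, 5 of 8 and 0 of 2. Across the 87 members Spearman's correlation between the log2 fold change and the mean per kilobase was -0.69 (-0.75 over the 32 of chromosome 19, -0.64 over the 55 others), against -0.28 over all listed genes. For the 374 other genes of chromosome 19 it was 0.18. These are descriptions across genes that share the same 6 libraries. ZNF146, ZFP91 and ZNF664, at 494, 379.7 and 319 per kilobase, were abundant genes that rose.

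**Figure D4:**
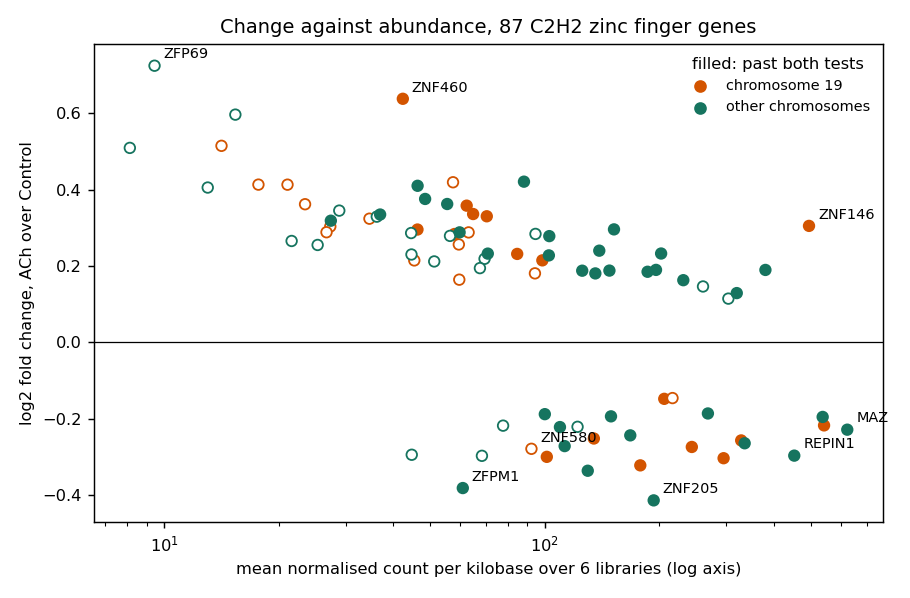
Log2 fold change (ACh over Control) against mean normalised count per kilobase over the 6 libraries (log axis) for the 87 C2H2 genes, coloured by chromosome; filled points passed both tests. The 3 most abundant genes lie below 0, while ZNF146 and ZFP91 are abundant genes above it, and the least abundant are mostly above 0.

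The share of members that were higher grew with gene length. Bins of gene length over all listed genes had limits at 3.19, 5.22 and 7.80 kb. From the shortest to the longest bin 1 of 8, 13 of 25, 21 of 27 and 25 of 27 members were higher in ACh. The 1 higher gene among the shortest was ZNF823, and the 2 lower genes among the longest were WIZ and ZNF740. The other listed genes followed the same order, with 25.3%, 39.0%, 53.7% and 73.8% higher, and Spearman's correlation of the log2 fold change with length was 0.29 over the members and 0.34 over all listed genes. On chromosome 19, 1 of 4, 6 of 10, 9 of 11 and 6 of 7 members were higher. Of the other genes there, between 2.33% and 5.41% were higher in each length bin, although their Spearman correlation with length was 0.25, against 0.10 for the members. With the length trend removed from each library, an alternative chosen after seeing the data, 60 of the 87 members were still higher and none changed sign, and 43 passed both tests, 24 as rises and 19 as falls. ZNF768, SP3, KLF12 and ZKSCAN1 were among the 8 that lost their calls. The median log2 fold change of the chromosome 19 members was then 0.20.

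Other chromosomes with several members differed as well. Of 8 members on chromosome 16, 7 were lower and ZNF267 was higher. Of the lower ones 5 fell (62.5% of the 8, background 35.0%), ZNF205, ZFPM1, MAZ, E4F1 and ZNF768. On chromosome 7, 7 of 10 were higher. There ZNF12, ZNF655 and ZKSCAN1 rose (30%, background 28.8%), while REPIN1, ZNF777 and ZNF282 fell (30%, background 35.0%). All 4 members on chromosome 6 were higher, and ZNF292 and ZKSCAN8 rose. On chromosome 12 ZNF664 rose by 0.13 and on chromosome 3 ZNF654 was higher by 0.29. Each overlaps a listed gene on the opposite strand, CCDC92 (-0.22) and CGGBP1 (0.17), so their reads could not be told apart.

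The 36 members without a call were all past limma and short of the authors' adjusted p. For 4 of them, ZFP69, ZNF799, ZNF273 and ZNF572, the authors' deposited adjusted p was exactly 1, as for 234 genes of the table, which was treated as not adjusted. No reading is made of the missing call for these 4. Of the 36, 30 were higher in ACh and 6 lower, and 31 lay in the lowest bin of abundance. ZNF273 had 66.1, 67.0 and 42.2 (Control) against 79.4, 91.6 and 75.5 (ACh) and ZNF572 46.4, 37.5 and 36.1 (Control) against 59.0, 65.6 and 57.6 (ACh), without overlap between the groups.

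Zinc finger proteins recruit corepressors, whose genes changed in both directions. Of 45 cofactor genes in the list 20 had a row, among which 3 rose (15%, background 28.8%), 8 fell (40%, background 35.0%) and 9 were not called. With libraries scaled to equal totals 5 fell, and with the length trend removed 1 rose. The list had a median log2 fold change of -0.12, against -0.10 over all listed genes. TRIM28, the corepressor of KRAB proteins, which itself lies on chromosome 19, went from a Control mean of 13454 ± 385 to an ACh mean of 11896 ± 179.7 (SD, n = 3), a fall of 0.18 (SE 0.03). It stood at 13358, 13878 and 13126 (Control) against 11863, 12090.2 and 11735 (ACh), all ACh libraries below all Control libraries. CTBP1, a corepressor of several KLF and ZEB proteins, and MBD3, a subunit of the NuRD complex, fell by 0.27 and 0.27. MBD3 and DNMT1 lie on chromosome 19 too, where most listed genes fell. DNMT1, EHMT1, MTA2 and CHD3 fell by 0.15, 0.16, 0.14 and 0.12.

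The 3 cofactor genes that rose were MORC3, ATF7IP and CBX5. MORC3, a nuclear body ATPase, had 538, 479 and 539.8 (Control) against 688, 724 and 627 (ACh) and rose by 0.39. ATF7IP, the partner that stabilises SETDB1, rose by 0.19, and CBX5, which encodes heterochromatin protein 1 alpha, by 0.13. SETDB1 had no row. Cofactor genes other than CTBP1, MBD3, MORC3 and ATF7IP were named after their values were seen.

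The related BTB zinc finger genes, which the table files as a family of their own, had 12 rows. Of these 8 were higher, 5 rose (41.7%, background 28.8%), 2 fell (16.7%, background 35.0%) and 5 were not called, so that 58.3% were called against 63.8% of listed genes, with a median log2 fold change of 0.21 and a median normalised count of 539. ZBTB7A, on chromosome 19, had 1982, 1989.7 and 2018 (Control) against 1576, 1731 and 1786 (ACh) and fell by 0.24. ZBTB41 and ZBTB37 rose by 0.33 and 0.32. BCL6, lower by 0.25 without a call, is counted both in these 12 rows and among the 20 cofactor genes. The genes of this family were named after their values were seen.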

How the data were processed

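Per the labels' protocols, SMARTER libraries were prepared from total RNA of the 6 samples. Bowtie 0.12.2 is named in the submitters' processing notes, with mm10 and mm8 as builds. Those are mouse builds and the labelled organism is mouse, yet 4183 of the 4195 gene IDs are human (ENSG). The counter and a human build: not given in the sources used here. Coordinates stand as in the file. The deposited values are a signal made by the authors, read as counts divided by one factor per library. No label or header says so; it is inferred from the values, since a library's values were all multiples, to within a tolerance of 0.1, of a unit between 0.768 and 1.13. Counts were not rebuilt, because the Control libraries held too few low values, so the planned edgeR and DESeq2 fits were not run. The log2 fold changes and p-values in the deposited table are the authors' own, and all of these p-values were under 0.05.

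Values were tested as log2(value + 1) with limma 3.58.1 (limma-trend, R 4.3.3), group as the only term, Benjamini-Hochberg adjustment over 4195 genes and no filter. Because limma called 99.6% of the selected rows, a call also needed the authors' adjusted p, and neither is independent of the other. The test was checked on simulated data. Gene members and lists were chosen with earlier results of these data known. Named genes were, among those past both tests without overlap, the 6 largest rises and falls above and the 4 below the median abundance of the 87 genes (513), the 3 most abundant per kilobase, and up to 2 per direction of each list; the BTB, the GLI, GLIS and ZIC, and the PRDM lists had no listed member. GC content was that of mouse transcripts in GENCODE M21. Tables and plots were made with SciPy 1.17.1, Matplotlib 3.10.9, NumPy 2.4.6 and pandas 2.3.3 under Python 3.11.15. Members named outside that rule were chosen after their values were seen. Alternatives are given in the closing section.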

Additional observations from a re-analysis of the deposited data

How the results depend on the processing

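The 51 calls among the C2H2 genes were the same 51 genes with a pseudocount of 0.1 or 10, with the replicate block (51), by the authors' adjusted p alone and without any one library. They numbered 45 with equal totals, 43 with the length trend removed and 35 of the 40 genes left by the filter on low abundance. The authors' adjusted p was not recomputed under any setting, so these counts varied only through limma, which in the main setting called all 87. The unchanged 51 with the pseudocounts, the block and the left-out libraries was therefore close to fixed beforehand. Same-numbered Control and ACh libraries deviated together only weakly (r = 0.082, 0.056 and 0.047), so the numbers were not taken as pairs, although every library correlated best with its own number. Limma alone called all 87, with 22 rises on chromosome 19, 38 rises elsewhere and 9 cofactor rises. The filter on the lowest bin of abundance removed 47 genes and left 3 rises on chromosome 19 and 8 falls elsewhere, and the median log2 fold change of the chromosome 19 members reversed to -0.22, because the higher members there are the low ones. Equal totals gave 8 falls elsewhere, 5 cofactor falls and medians of 0.35 on chromosome 19, 0.27 elsewhere and 0.37, 0.24 and 0.23 in the 3 lower abundance bins. It shifted the median of all listed genes from -0.10 to -0.02. Removing the length trend gave medians of 0.20, 0.13, 0.26, 0.030 and 0.085 in the same order, and 1 cofactor rise. With numbered ZNF genes only there were 5 falls on chromosome 19, 10 rises and 7 falls elsewhere and a median of 0.23 elsewhere. Bins set per kilobase reversed the medians of the second and the third bin to -0.15 and -0.036. Without single libraries the median was 0.18 to 0.21 elsewhere and 0.27 to 0.32 in the lowest bin. Of the 33 genes named by the rule none changed sign, 1 lost its call with equal totals and 5 with the length trend removed. The edgeR and DESeq2 fits and the removal of a GC trend were not run. Depth is unknown, and the least abundant genes rest on few reads.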
